A study of Homo sapiens with 9 samples.

Results

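The JAK kinases and STAT factors were read as 9 of the 60662 genes in the expression table of *DYRK1A* knockout (KO) and wild-type (WT) SET2 cells. The members were 4 kinases (*JAK1*, *JAK2*, *JAK3* and *TYK2*) and 5 transcription factors (*STAT2*, *STAT3*, *STAT5A*, *STAT5B* and *STAT6*). Their entries were found by gene symbol alone, and each symbol matched 1 entry. The choice of members was made with earlier results of these data known.

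Cytokine receptors such as those for erythropoietin and thrombopoietin have no kinase activity of their own and hold JAK kinases on their tails. A bound cytokine brings the JAKs together, and they phosphorylate each other, the receptor and the STATs, which then pair and enter the nucleus to drive transcription. Activating mutations of *JAK2* are the usual driver of myeloproliferative neoplasms (MPN), where STAT5 carries much of the signal. RNA counts give the amount of each transcript, not phosphorylation, and they do not separate the mutant from the normal allele of *JAK2*.

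SET2 is a *JAK2* mutant megakaryoblastic line that the labels call an AML after MPN, of hematopoietic origin. Bulk mRNA was sequenced in 9 untreated libraries, 3 each of WT cells, *DYRK1A* KO clone 11H1 and *DYRK1A* KO clone 14B5. Each clone was grown from 1 cell sorted after nucleofection of Cas9 with a guide to *DYRK1A*, and was kept because it held only out-of-frame indels. Clones were set against WT one at a time, pooled (KO, n = 6) and against each other. A single-cell clone without the edit was not analysed here, and nothing in the labels says that libraries of a group came from separate cultures. The p values therefore cover the spread between these libraries, and loss of *DYRK1A* cannot be told apart from what each founder cell already carried.

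Libraries held 32347779 to 60272245 expected counts, and a member had 2588 to 20484 of them. Libraries of 1 group differed from each other by a chi-square per gene of 3.84 to 34.7, where 1 would be sampling noise alone. Levels are given as CPM, the count scaled to a library of 1000000 after correction of library sizes. *DYRK1A* RNA, which frameshifts need not remove, was at 196 to 219 CPM in WT, 188 to 192 in 11H1 and 174 to 191 in 14B5. All 5 progenitor and 7 erythroid markers and 6 of 9 megakaryocyte markers reached 1 CPM, but *PF4*, *PPBP* and *VWF* did not. The summed progenitor markers were at 1727 to 1879 CPM in WT, 1487 to 1516 in 11H1 and 1466 to 1555 in 14B5. The summed megakaryocyte markers were at 1111 to 1116 CPM in WT, 751 to 775 in 11H1 and 666 to 688 in 14B5. The summed monocyte markers, of which 2 of 5 reached 1 CPM and *CD14* did not, were at 262 to 269, 127 to 136 and 131 to 145 CPM. Of the T cell, B cell, fibroblast and epithelial lists, 1, 2, 0 and 3 of 5 markers reached 1 CPM. Mitochondrial genes took 7.23% to 7.39% of counts in 11H1, against 3.54% to 6.03% in WT and 3.30% to 3.92% in 14B5. The part of these differences in the results on JAKs and STATs was not tested. In bulk RNA, fewer cells that express a gene and less RNA per cell cannot be told apart.

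The genes lie on 5 chromosomes of GRCh38, placed with GENCODE v29. *JAK1* (ENSG00000162434.12) spans chr1:64833229-64966504 on the minus strand, and *JAK2* (ENSG00000096968.13) spans chr9:4984390-5128183 on the plus strand. *TYK2* (ENSG00000105397.13, chr19:10350529-10380676) and *JAK3* (ENSG00000105639.18, chr19:17824780-17848071) are both on the minus strand of chromosome 19. *STAT2* (ENSG00000170581.14, chr12:56341597-56360155) and *STAT6* (ENSG00000166888.12, chr12:57095408-57132139) are on the minus strand of chromosome 12. The other 3 stand in a row on chromosome 17, *STAT5B* (ENSG00000173757.9, chr17:42199168-42276707, minus strand), *STAT5A* (ENSG00000126561.16, chr17:42287547-42311943, plus strand) and *STAT3* (ENSG00000168610.14, chr17:42313324-42388568, minus strand). *STAT5A* and *STAT5B* are close copies, and only they had counts that were not whole, in 9 of 9 libraries each, as happens where reads are divided between genes. Exons of *JAK1* overlap those of *RAVER2* on the opposite strand, and exons of *STAT6* overlap those of *NAB2* and *LRP1*, also on the opposite strand. *RAVER2* had 983 to 2658 counts, *NAB2* 657 to 1544 and *LRP1* 452 to 1223. The study's methods name a stranded kit and the labels another kit, so whether strand kept these genes apart is uncertain.

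The 3 kinase genes whose RNA differed most between 11H1 and WT are shown by the 100 bases before their outermost start in RefSeq or GENCODE, from the RefSeq promoter table (GRCh38.p14), 5′ to 3′ along the gene, with CCAAT in capitals. The windows are chr9:4984290-4984389 on the plus strand for *JAK2*, and chr19:17848072-17848171 and chr19:10380677-10380776 on the minus strand for *JAK3* and *TYK2*.
JAK2: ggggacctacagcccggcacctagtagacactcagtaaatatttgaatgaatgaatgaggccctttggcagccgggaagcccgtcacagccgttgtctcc
JAK3: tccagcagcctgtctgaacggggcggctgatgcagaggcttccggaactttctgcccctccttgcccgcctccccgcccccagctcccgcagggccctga
TYK2: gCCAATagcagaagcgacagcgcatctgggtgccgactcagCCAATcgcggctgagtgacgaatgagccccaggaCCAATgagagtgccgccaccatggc

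The *TYK2* stretch holds CCAAT 3 times and the other stretches hold it nowhere. CCAAT, looked for after the sequences had been read, occurred on either strand in 34.6% of the 35116 promoter entries of 300 bases. For each member only the entry nearest its GENCODE start was searched. It held CCAAT in 4 of the 9 genes, *TYK2*, *STAT2*, *STAT3* and *STAT6*. The *STAT6* entry has its RefSeq start at chr12:57110289, inside the gene and away from its GENCODE start at 57132139. Of the 9 entries searched, that of *JAK2* had the lowest GC content, 50.3%, against a median of 58.7% over all entries. The STAT binding motif TTCNNNGAA, which reads the same on both strands, was in 7.66% of entries and in none of the 16 entries of the 9 genes. The wider TTCNNNNGAA was in 6.44% of entries and in 1 member, *STAT5A*, at position −229 from a RefSeq start (chr17:42287200-42287229, plus strand, motif in capitals).
STAT5A: ttttttttttTTCCTCTGAAgttaaaagaa
These are matches of letters in a window, and binding was not measured.

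*JAK2*, the kinase that serves the erythropoietin and thrombopoietin receptors and that is mutant in SET2, fell in both clones, more in 11H1. Its level was 142, 144 and 163 CPM in the WT libraries. In 11H1 it was 102, 89.4 and 99.98 CPM, and in 14B5 127, 125 and 112 CPM. The 3 groups did not overlap, with WT highest and 11H1 lowest. The log2 fold change (log2FC) was −0.61 (SE 0.0663, adjusted p = 7.09e-06 in edgeR) in 11H1 versus WT, where the level fell by 34.5%. In 14B5 versus WT it was −0.31 (SE 0.0669, adjusted p = 0.00288 in edgeR). WT library 3 was the highest of all 9, and without it the values were −0.55 and −0.23, both still past the threshold of 0.05. Set against each other, 11H1 was lower than 14B5 by a log2FC of −0.31 (adjusted p = 8.38e-04 in edgeR).

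*JAK1*, which pairs with other JAKs on interferon, interleukin-6 and common gamma chain receptors, fell in 14B5 but was not past the threshold in 11H1. WT libraries had 187, 189 and 212 CPM and 11H1 libraries 202, 185 and 199 CPM, ranges that overlapped. The log2FC in 11H1 versus WT was 0.0027, with a 95% interval of −0.12 to 0.13 and an adjusted p of 0.970 in edgeR. The 14B5 libraries had 147, 148 and 138 CPM, all below the lowest WT library. There the log2FC was −0.46 (SE 0.0581, adjusted p = 9.89e-05 in edgeR), and 11H1 was above 14B5 by 0.45 (adjusted p = 9.37e-06 in edgeR).

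*JAK3*, the partner of *JAK1* on receptors with the common gamma chain, moved in opposite directions in the clones. It stood at 149, 144 and 139 CPM in WT and at 198, 203 and 195 CPM in 11H1. In 14B5 it stood at 119, 121 and 128 CPM, so each 11H1 library was above and each 14B5 library below every WT library. Against WT the log2FC of 11H1 was 0.47 (SE 0.0465, adjusted p = 3.22e-06 in edgeR). That of 14B5 was −0.25 (SE 0.0490, adjusted p = 0.00176 in edgeR). The difference between the clones, 0.70 (SE 0.0439, adjusted p = 1.08e-07 in edgeR), was the largest of the 9 genes in any of the 4 comparisons.

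*TYK2*, which serves the receptors of type I interferon and of interleukin-12 and interleukin-23, rose in 11H1. Its WT levels were 157, 153 and 145 CPM, and its 11H1 levels 211, 206 and 199 CPM, with a log2FC of 0.45 (SE 0.0491, adjusted p = 7.89e-06 in edgeR). The 14B5 libraries were the most uneven, at 126, 145 and 152 CPM, and overlapped those of WT. The log2FC there was −0.12, with an interval of −0.27 to 0.03 and an adjusted p of 0.170 in edgeR. Between the clones the log2FC was 0.55 (adjusted p = 1.24e-05 in edgeR).

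**Figure D1:**
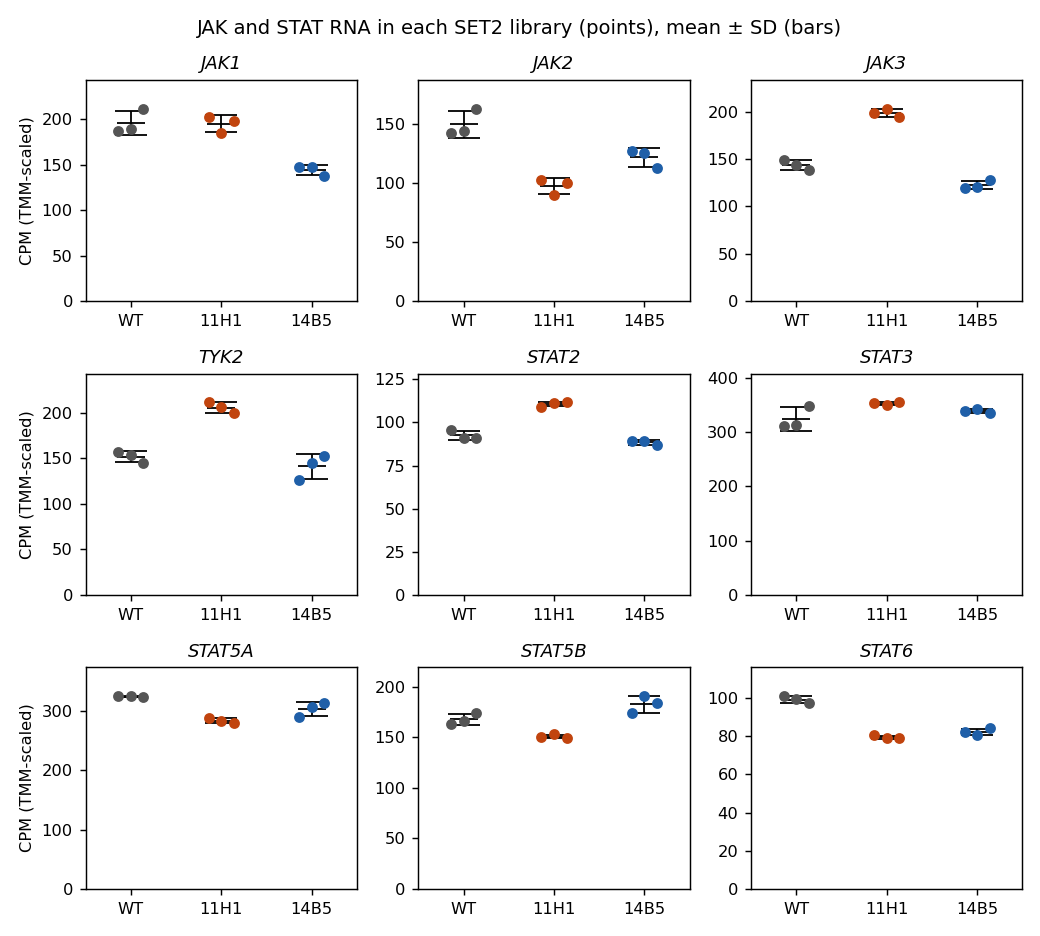
CPM of each JAK and STAT gene (vertical axes, from 0) in the 3 libraries of WT (gray), 11H1 (orange) and 14B5 (blue); points are libraries and bars the mean ± SD. *JAK2* was lower in both clones than in WT, *JAK3* and *TYK2* were highest in 11H1, *JAK1* was lowest in 14B5, and *STAT6* was lower in both clones.

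*STAT5A* and *STAT5B*, the factors through which *JAK2* acts in blood cells, both fell in 11H1. *STAT5A* was at 324, 325 and 323 CPM in WT and at 288, 283 and 279 CPM in 11H1, a log2FC of −0.19 (SE 0.0426, adjusted p = 0.00215 in edgeR). In 14B5 it was at 290.1, 307 and 313 CPM, also below each WT library, but the log2FC of −0.11 missed the threshold (adjusted p = 0.0661 in edgeR). *STAT5B* was at 163, 166 and 174 CPM in WT and at 150.0, 153 and 149 CPM in 11H1, a log2FC of −0.15 (SE 0.0441, adjusted p = 0.0114 in edgeR). In 14B5 it was at 174, 191 and 184 CPM, and the lowest of these overlapped the highest WT library. The log2FC was 0.11, with an interval of −0.0016 to 0.22 and an adjusted p of 0.0885 in edgeR. The clones differed in *STAT5B* by −0.27, 11H1 being lower (adjusted p = 2.35e-04 in edgeR). In *STAT5A* they differed by −0.09, which missed the threshold (adjusted p = 0.0814 in edgeR).

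Because reads are divided between these close copies, both were also summed to 1 feature. The sum fell in 11H1 by 0.17 on the log2 scale (adjusted p = 0.00340 in edgeR) and was at −0.03 in 14B5 (adjusted p = 0.592 in edgeR). *STAT5A* held 65.9% ± 0.821 (SD, n = 3) of the summed counts in WT, 65.3% ± 0.409 in 11H1 and 62.4% ± 0.655 in 14B5. The 14B5 libraries, at 61.7% to 63.0%, were below all WT libraries, at 65.0% to 66.6%, and below all 11H1 libraries, at 64.9% to 65.7%. The difference between 14B5 and WT was −3.51 percentage points, with a two-sided exact permutation p of 0.1, the smallest that 3 libraries against 3 allow. Between 11H1 and WT it was −0.638 points (exact permutation p = 0.3).

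*STAT3*, the factor of interleukin-6 type cytokines and a substrate of DYRK1A, had 310.4, 313 and 348 CPM in WT. The 11H1 libraries had 353, 349 and 354 CPM, just above the highest WT library. Its log2FC of 0.13 was close to the threshold (SE 0.0515, adjusted p = 0.0461 in edgeR), and the call was lost in 8 of 14 alternatives, with adjusted p values of up to 0.207. The 14B5 libraries, at 339, 343 and 335 CPM, lay within the WT range, with a log2FC of 0.05 and an interval of −0.07 to 0.17 (adjusted p = 0.452 in edgeR). Between the clones it was 0.06 (interval −0.02 to 0.15, adjusted p = 0.184 in edgeR).

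*STAT2*, which forms the interferon-stimulated complex ISGF3 with IRF9, rose in 11H1. It had 95.6, 91.1 and 90.7 CPM in WT and 109, 111 and 112 CPM in 11H1, a log2FC of 0.26 (SE 0.0443, adjusted p = 2.36e-04 in edgeR). The 14B5 libraries had 89.0, 89.5 and 86.9 CPM, all below WT, with a log2FC of −0.08 that missed the threshold (adjusted p = 0.158 in edgeR). Between the clones the value was 0.33 (adjusted p = 2.19e-05 in edgeR).

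*STAT6*, the factor of interleukin-4 and interleukin-13, fell in both clones. Its WT levels were 101, 99.4 and 97.3 CPM. They were 80.5, 78.8 and 79.1 CPM in 11H1 and 82.2, 80.9 and 84.1 CPM in 14B5, with no overlap between either clone and WT. The log2FC was −0.31 (SE 0.0437, adjusted p = 5.60e-05 in edgeR) in 11H1 and −0.28 (SE 0.0434, adjusted p = 3.54e-04 in edgeR) in 14B5. Between the clones it was −0.04, with an interval of −0.14 to 0.05 (adjusted p = 0.363 in edgeR).

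Counted over the family, 8 of 9 genes passed the threshold in 11H1 versus WT, 4 higher and 4 lower. All 9 had passed the filter on low counts in every comparison. Of all genes tested, 64.6% were called in this comparison, 31.8% higher and 32.8% lower, so a call was common among genes of any kind. The libraries did not overlap for 8 of the 9, against 68.7% of all genes. The median absolute log2FC of the 9 was 0.26, below the 0.35 of all genes. In 14B5 versus WT 4 of 9 passed, all lower (*JAK1*, *JAK2*, *JAK3* and *STAT6*), where 53.5% of all genes were called, 24.9% higher and 28.7% lower. The libraries did not overlap for 6 of the 9, against 60.9% of all genes, and the median absolute log2FC was 0.12 against 0.26. Between the clones 6 of 9 passed, 4 higher in 11H1 and 2 lower, against 63.7% of all genes, 31.6% higher and 32.1% lower. There the libraries did not overlap for any of the 9, against 68.7% of all genes, and both medians were 0.31.

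Pooled over both clones, 2 of 9 genes passed against WT, both lower, where 32.0% of all genes were called, 14.3% higher and 17.7% lower. They were *STAT6* (log2FC −0.29, SE 0.0462, adjusted p = 9.70e-04 in edgeR) and *JAK2* (−0.45, SE 0.111, adjusted p = 0.0120 in edgeR). The *JAK2* call was lost without WT library 3 (−0.38, adjusted p = 0.0664 in edgeR). *STAT5A* did not overlap with WT in any KO library but missed the threshold (−0.14, adjusted p = 0.0764 in edgeR). Libraries of the KO and WT groups did not overlap for 3 of the 9 genes, against 36.6% of all genes. The pooled values of *JAK3* (0.16), *TYK2* (0.19) and *JAK1* (−0.21) average clones that differed, and their adjusted p values were 0.581, 0.401 and 0.265 in edgeR. The biological coefficient of variation was 0.185 in the pooled comparison, against 0.0583 in 11H1 versus WT and 0.0673 in 14B5 versus WT. With the 3 groups kept apart in 1 fit, 7 of 9 genes passed for the mean of the clones against WT, 3 higher and 4 lower. That fit measures spread within clones only. The pooled fit counts each KO library as a replicate, although libraries of 1 clone are not independent replicates of the knockout.

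**Figure D2:**
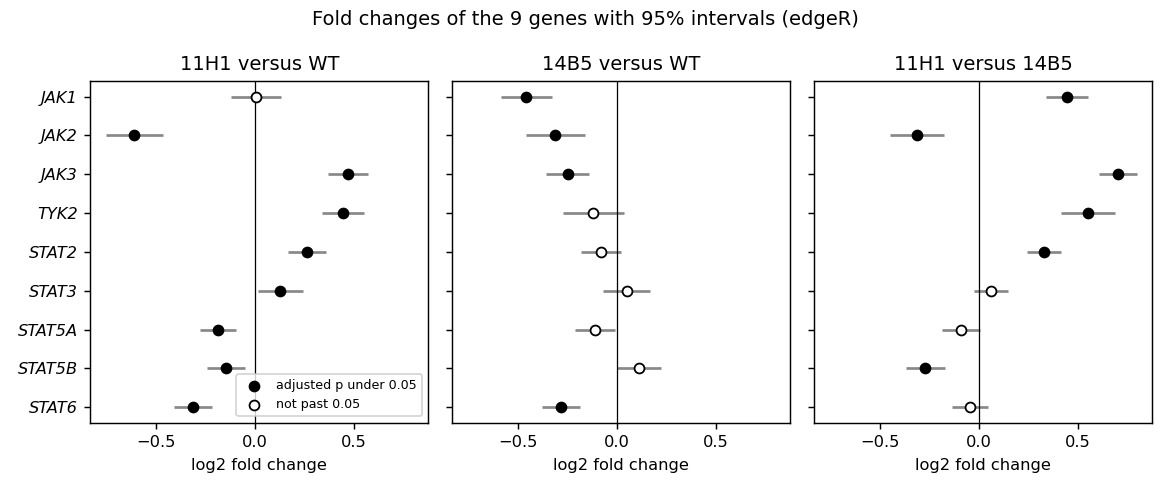
log2FC of each gene (horizontal axis) in 11H1 versus WT, 14B5 versus WT and 11H1 versus 14B5, with 95% intervals (gray lines); filled points had an adjusted p under 0.05 in edgeR. In 11H1 8 of 9 genes were filled, on both sides of 0, and in 14B5 4 were filled, all below 0.

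To compare genes with each other, CPM was divided by the length of each gene's merged exons. That length covers all annotated transcripts, not only those expressed here, so the order of genes depends on it. Before division *STAT6* was above *STAT2* in WT, at means of 99.2 and 92.5 CPM, and below it in both clones. On this scale *STAT5A* was the highest of the 9 in each group, at 56.3 CPM per kb ± 0.191 (SD, n = 3) in WT, 49.2 ± 0.727 in 11H1 and 52.7 ± 2.08 in 14B5. *STAT3* was the second, at 36.7, 39.9 and 38.5 CPM per kb, and *STAT6* the lowest, at 13.6, 10.9 and 11.3 CPM per kb. Among 13506 protein-coding genes the 9 lay between percentile 69.0 and percentile 94.99 of their group. In WT the order below *STAT3* was *JAK1* (31.0), *STAT5B* (26.0), *JAK2* (24.2), *TYK2* (22.4), *JAK3* (21.1) and *STAT2* (15.1 CPM per kb). The neighbours from *STAT5B* to *JAK3* overlapped one with the next in their libraries.

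In 11H1 *JAK2* stood last among the kinases, at 15.8 CPM per kb ± 1.12 (SD, n = 3), after *JAK1* (30.9), *TYK2* (30.3) and *JAK3* (29.2), which overlapped one with the next. Of the 9 genes only *STAT6* was lower there, since *STAT2* stood at 18.1 CPM per kb and *STAT5B* at 23.4. In 14B5 the order was *STAT5B* (28.4), *JAK1* (22.8), *TYK2* (20.8), *JAK2* (19.7), *JAK3* (18.0) and *STAT2* (14.5 CPM per kb), and the 4 kinases overlapped one with the next.

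As a share of the summed level of the 4 kinases, which library scaling does not touch, *JAK2* held 24.5% ± 1.27 (SD, n = 3) in WT, 14.8% ± 0.789 in 11H1 and 24.2% ± 1.67 in 14B5. The 11H1 libraries, at 13.9% to 15.3%, were below all WT libraries, at 23.5% to 25.9%, and all 14B5 libraries, at 22.4% to 25.8%. The difference from WT was −9.66 points in 11H1 (exact permutation p = 0.1, two-sided, the smallest possible) and −0.272 points in 14B5 (exact permutation p = 0.9). *JAK3* held 21.4% of the sum in WT and 27.5% in 11H1, and *TYK2* 22.7% and 28.6%, without overlap and with the same smallest exact permutation p of 0.1. In 14B5 these shares were 22.1% and 25.6% and overlapped WT. *JAK1* held 31.4% in WT, 29.1% in 11H1 and 28.1% in 14B5, with all libraries of each clone below those of WT. The ratio of *JAK2* to *JAK1* was 0.780 ± 0.00592 (SD, n = 3) in WT, 0.509 ± 0.0133 in 11H1 and 0.862 ± 0.0237 in 14B5. *JAK2* and *JAK1* therefore stood closer to each other in 14B5 than in WT, although both had fallen.

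The summed kinases were at 98.8 CPM per kb ± 2.57 (SD, n = 3) in WT, 106 ± 2.46 in 11H1 and 81.3 ± 1.36 in 14B5, with no overlap between the groups. The summed STATs stayed closer, at 148 ± 2.57, 142 ± 0.623 and 145 ± 3.18 CPM per kb, and the libraries of 14B5 overlapped those of both other groups. Within the STATs *STAT2* held 10.2% in WT and 12.8% in 11H1, and *STAT3* 24.8% and 28.2%, both without overlap. *STAT5B* held 17.6% in WT, 16.5% in 11H1 and 19.5% in 14B5, each group apart from the others.

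**Figure D3:**
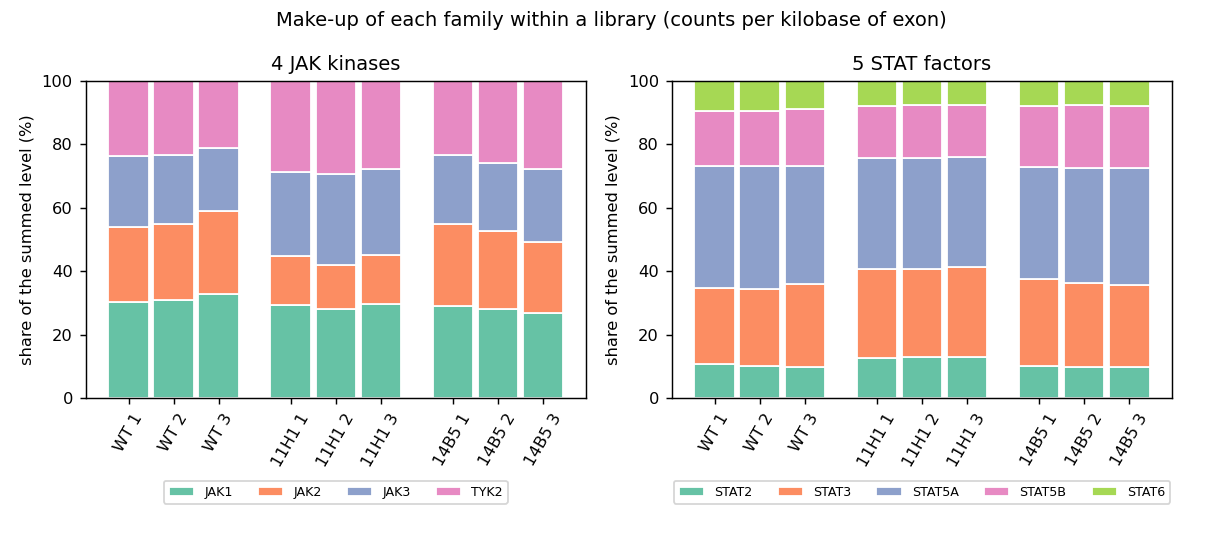
Share of the summed level per kilobase of exon (vertical axis, %) held by each of the 4 JAK kinases (left) and 5 STAT factors (right) in the 9 libraries. The band of *JAK2* was between 13.9% and 15.3% in 11H1 and between 22.4% and 25.9% in the other 6 libraries.

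Receptors, brakes and adaptors of the pathway were read from 3 lists. Of 27 cytokine receptors 20 passed the filter, and in 11H1 versus WT 3 were higher and 14 lower, with a median log2FC of −0.29 against −0.0066 over all genes, of which 31.8% were higher and 32.8% lower. *EPOR*, the erythropoietin receptor that works through *JAK2*, rose by 1.05 (adjusted p = 4.04e-08 in edgeR), from a mean of 49.6 to 102 CPM. *IL6ST*, the shared receptor of interleukin-6 type cytokines, rose by 0.43 (adjusted p = 3.25e-04 in edgeR) and in 14B5 by 0.37 (adjusted p = 0.00608 in edgeR). *IL12RB1*, which holds *TYK2*, was at −1.82 (adjusted p = 1.89e-06 in edgeR) and *IL21R*, a common gamma chain receptor, at −1.59 (adjusted p = 3.66e-07 in edgeR), from means of only 3.55 and 6.96 CPM in WT. In 14B5 versus WT 6 receptors were higher and 10 lower, with a median of −0.21 against −0.014 over all genes, of which 24.9% were higher and 28.7% lower. *EPOR* rose there by 0.93 (adjusted p = 2.15e-06 in edgeR), while *IL21R* was at −2.40 and *IL12RB1* at −1.36. *LEPR*, the leptin receptor, moved in opposite directions, rising in 14B5 (0.93, adjusted p = 8.98e-06 in edgeR) and falling in 11H1 (−0.24, adjusted p = 0.00964 in edgeR). The erythroid markers, a list that holds *EPOR*, summed to 1806 to 2105 CPM in WT, 2252 to 2463 in 11H1 and 1983 to 2305 in 14B5. Their part in the change of *EPOR* was not tested.

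Of the 20 brakes, 8 were higher and 4 lower in 11H1, and 5 were higher and 4 lower in 14B5, with medians of 0.00041 and 0.03. Over all genes 64.6% were called in 11H1 and 53.5% in 14B5, with medians of −0.0066 and −0.014. *SOCS3*, which blocks JAKs on interleukin-6 type receptors and is itself a STAT target, rose in both clones. From a mean of 97.2 CPM in WT it went to 154 and 180 CPM, with log2FCs of 0.67 and 0.87 (adjusted p = 3.21e-07 and 1.66e-07 in edgeR). *USP18*, which damps the type I interferon receptor, fell from 6.11 CPM to 1.54 and 2.40 (−1.98 and −1.36, adjusted p = 2.52e-07 and 1.09e-05 in edgeR). *PTPN6*, the phosphatase SHP-1, rose in both clones (0.33 in 11H1 and 0.62 in 14B5, adjusted p = 5.04e-05 and 5.06e-06 in edgeR). *SOCS4* rose in 11H1 (0.47) and was at 0.11 in 14B5 (adjusted p = 0.0669 in edgeR). *PTPN1*, a phosphatase of *JAK2* and *TYK2*, fell in 11H1 (−0.48) and was at −0.11 in 14B5 (adjusted p = 0.0944 in edgeR). *CBL*, a ubiquitin ligase, fell in 14B5 (−0.63) and was at −0.17 in 11H1 (adjusted p = 0.0809 in edgeR).

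Of the 15 adaptors and cofactors, 7 were higher and 5 lower in 11H1 and 3 higher and 2 lower in 14B5, with medians of 0.13 and 0.06, where 64.6% and 53.5% of all genes were called. *EP300* (0.81, adjusted p = 4.40e-07 in edgeR) and *CREBBP* (0.72, adjusted p = 2.17e-06 in edgeR), acetyltransferases that STATs recruit, rose in 11H1. In 14B5 they were at 0.09 and −0.06 (adjusted p = 0.258 and 0.538 in edgeR). *IRF9*, the partner of *STAT2*, rose by 0.56 in 11H1 and by 0.42 in 14B5 (adjusted p = 5.48e-06 and 3.71e-04 in edgeR). *GAB1*, a docking adaptor, rose in both clones (0.62 in 11H1 and 0.53 in 14B5), and its relative *GAB2* fell in both (−0.22 and −0.35). *HSP90AB1*, a chaperone of *JAK2*, also fell in both (−0.17 and −0.13, adjusted p = 0.00929 and 0.0353 in edgeR). *NMI*, which binds STATs, fell in 11H1 (−0.33) and was at 0.0018 in 14B5 (adjusted p = 0.977 in edgeR).

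**Figure D4:**
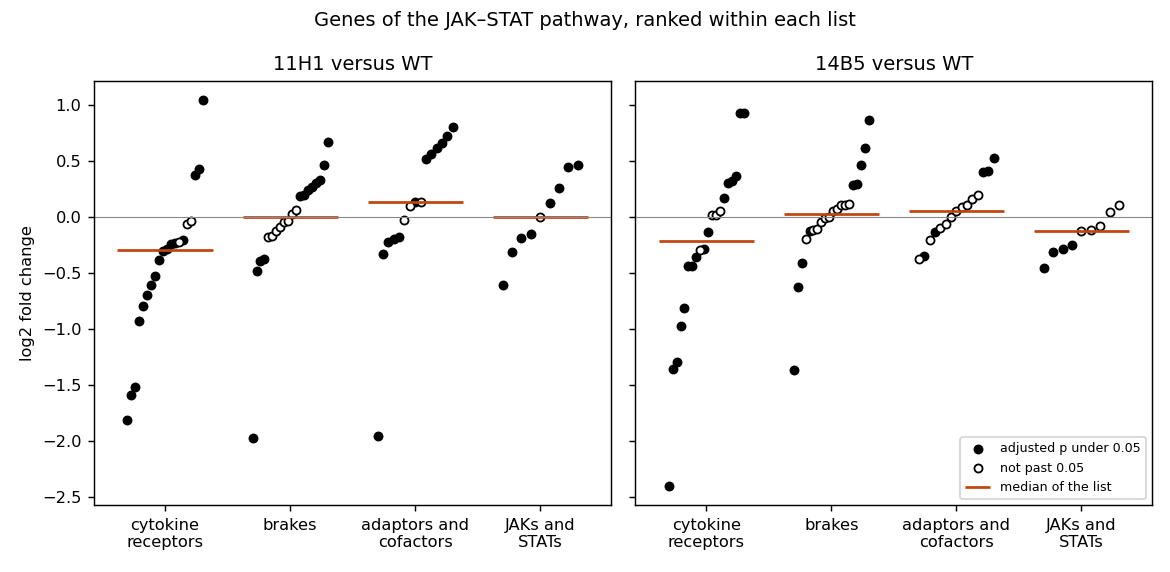
log2FC (vertical axis) of the tested receptors, brakes, adaptors and cofactors, and of the 9 JAK and STAT genes, ranked within each list, in 11H1 (left) and 14B5 (right) versus WT; filled points had an adjusted p under 0.05 in edgeR and lines are medians. The receptor medians, −0.29 and −0.21, were the lowest of the 4 lists; the lowest adaptor in 11H1 is *SH2B2* (−1.96), with a mean of 0.180 CPM over all libraries.

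Genes around *JAK2* lay on both sides of 0. Of all genes tested, 31.8% were higher and 32.8% lower in 11H1 versus WT, with a median log2FC of −0.0066. In 14B5 versus WT these shares were 24.9% and 28.7%, with a median of −0.014. Of 16 tested protein-coding genes that start within 2000000 bases, 4 were higher and 4 lower in 11H1 versus WT, with a median log2FC of 0.04. Only *GLDC*, named after its value was seen, was further down than *JAK2* (−2.57). In 14B5 versus WT 7 of 17 were higher and 2 lower, with a median of 0.14, and again only *GLDC* was further down (−3.91). Around *TYK2* 50 of 94 genes were higher and 22 lower in 11H1, with a median of 0.23. In 14B5, where *TYK2* was at −0.12, 48 of 94 were higher and 16 lower, with a median of 0.19. The 2 comparisons share their WT libraries. Around *JAK1* in 14B5 the median of 14 neighbours was 0.14, with 6 higher and 4 lower, while *JAK1* was at −0.46.

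**Figure D5:**
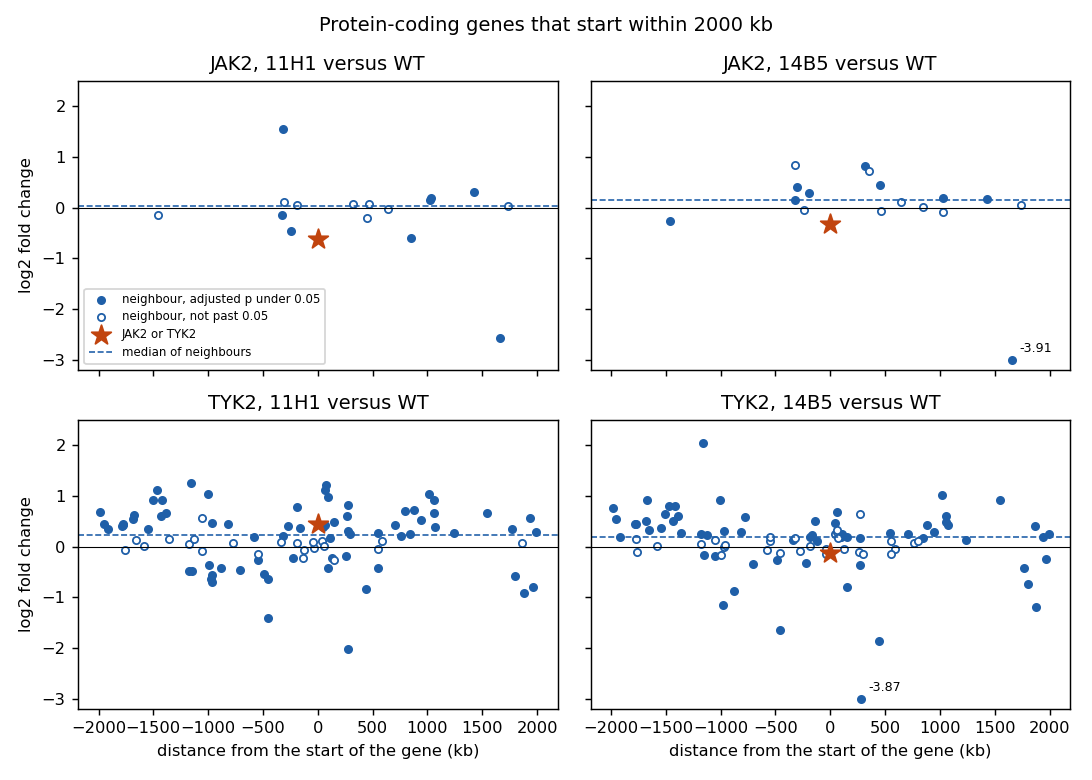
log2FC (vertical axis) of protein-coding genes by the distance of their start from that of *JAK2* (top) or *TYK2* (bottom), in kilobases (kb), for each clone versus WT; stars are *JAK2* and *TYK2*, filled circles genes with an adjusted p under 0.05 in edgeR and dashed lines medians. Values below −3 are drawn at −3 and printed beside the point; the *JAK2* star lies below the median of its neighbours in both clones.

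Among the genes whose CPM was most like that of *JAK2* over the 9 libraries, of 9379 genes whose mean reached 10 CPM, were *MCFD2* (Pearson's r = 0.995), *XPO7* (0.989), *ST6GAL1* (0.988) and *RBM27* (0.988). These 4 were highest in WT and lowest in 11H1. *MCFD2* had means of 216, 167 and 193 CPM in WT, 11H1 and 14B5, and *XPO7* 222, 175 and 199 CPM. The libraries fall into 3 groups, so such an r mostly ranks group means, and 5.77% of the genes had an r above 0.9.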

How the data were processed

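The authors deposited 1 table of RSEM expected counts per gene, neither scaled for depth nor for length. The labels' processing notes list STAR 2.7.9a, Picard, RSEM and GRCh38 without roles. The annotation release is not given in the sources used here, and 96.6% of gene identifiers matched GENCODE v29. The labels name a SMARTER mRNA kit and the study's methods a stranded TruSeq kit. The study pooled 5 KO libraries, and all 6 labelled ones were used here.

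From the deposited expected counts, rounded, 92 spike-in entries (all at 0) were removed. Each comparison was fitted on its own libraries with edgeR 4.0.16 (R 4.3.3), with filterByExpr, TMM scaling, quasi-likelihood F tests and Benjamini-Hochberg adjustment over all genes tested, threshold 0.05. SEs are the log2FC divided by the square root of F. Shares were compared by exact permutation tests, two-sided, which cannot go below 0.1 with 3 against 3. Steps were tested on simulated data. DESeq2 1.42.0, limma-voom 3.58.1 and the other alternatives are given at the end.

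The members and the gene lists, written from general knowledge, were chosen with earlier results of these data known. Named were all 9 members, per pathway list and clone the 2 largest calls in each direction with at least 1 CPM, and the 5 genes most like *JAK2*, of which 1 is not reported here. Values of named pathway genes in the other clone, *SH2B2* and *GLDC* were added after they were seen. Replicate numbers were not treated as pairs in the main fits. Correlations of deviations lay between −0.145 and 0.0581 for same-numbered libraries. Different-numbered libraries were not set beside them, so whether numbers pair libraries was not tested. No libraries were duplicates.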

Additional observations from a re-analysis of the deposited data

Results flagged for a closer look

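The clones, which carry the same label of genotype, differed from each other in 6 of the 9 genes when compared directly in edgeR. The log2FC of 11H1 versus 14B5 was 0.45 for *JAK1*, −0.31 for *JAK2*, 0.70 for *JAK3*, 0.55 for *TYK2*, 0.33 for *STAT2* and −0.27 for *STAT5B*. *JAK3* stood on opposite sides of WT, with all 3 libraries of each clone outside the WT range. The share of *STAT5B* in the 5 STAT levels was lower in 11H1 than in 14B5 by −2.99 percentage points. All 11H1 libraries were below WT and all 14B5 libraries above it, with an exact permutation p of 0.1, the smallest possible. Differences between the founder cells and a different response to the edit cannot be told apart, since each is 1 clone.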

How the results depend on the processing

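In KO versus WT the fit with the 3 groups apart gave 7 genes of the family where the pooled fit gave 2, and 10245 genes of all where it gave 5471. Leaving out each library in turn gave 1 to 3 genes of the family, the lowest without WT library 3. In 11H1 versus WT the count was 7 to 8 under all alternatives, in 14B5 versus WT 4 to 5 and between the clones 6 to 7. The fits with a replicate block gave 8, 4, 2 and 6 genes in 11H1 versus WT, 14B5 versus WT, KO versus WT and between the clones, the counts found without it. In the same order, limma-voom gave 8, 4, 2 and 6 genes and the DESeq2 Wald test 8, 4, 3 and 6. The gene that DESeq2 added in KO versus WT was *STAT5A* (−0.15, adjusted p = 0.0100 in the DESeq2 Wald test). Values near 0 changed sign. *JAK1* in 11H1 versus WT was at −0.020 with no filter, −0.0065 with at least 10 counts in every library and −0.0040 in the fit of 3 groups, and between −0.035 and 0.056 with 1 library left out. *STAT5B* in 14B5 versus WT was at −0.032 when summed with *STAT5A*. *STAT5B* in KO versus WT ranged from −0.048 to 0.023 with 1 library left out. The *JAK2* share in 14B5 versus WT ranged from −1.04 to 0.616 points, positive without WT library 3 (0.448) or without 14B5 library 3 (0.616). *STAT3* in 11H1 versus WT lost its call in 8 alternatives. Calls were gained for *STAT5A* in KO versus WT in 5 alternatives. For *STAT5B* in 14B5 versus WT they were gained in 4, among them without WT library 3 and without 14B5 library 1. *STAT5A* in 14B5 versus WT gained a call in 2. These were at least 10 counts in every library and protein-coding genes only (adjusted p = 0.0374 and 0.0389 in edgeR). Between the clones *STAT5A* gained a call in 2 alternatives and *STAT3* in 1. The cause of these changes was not tested. The 3 libraries of a group limit exact tests to 0.1.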
